A study of Mus musculus with 9 samples.

Results

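The genes described here encode the subunits of the proteasome and were found by name, as those whose symbol starts with Psma, Psmb, Psmc, Psmd or Psme followed by a number. Of 22180 mouse genes measured by a probe set with a single gene symbol, 44 had such a name. Of these, 18 belong to the core particle (Psma and Psmb) and 24 to the regulatory particles (Psmc, Psmd and Psme). The other 2, Psmc3ip and Psme3ip1, encode proteins that bind a subunit and are not subunits themselves, so they are given apart and the counts below are over the remaining 42. Psmd5, Psmd9 and Psmd10 encode chaperones of base assembly and are not subunits of the finished particle either. They carry Psmd names, so they are kept among the 24 and within what is called subunit genes below. Psma4, the alpha subunit missing from the set, is measured only by probe sets that also carry another gene's symbol.

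The washout group was made of cells given 50 nM B/B for 1 h, sorted as annexin V-positive and then kept for 6 h of washout, a step the series design gives as 3000 nM of a compound it does not name. The B/B 1 h group had 50 nM B/B for 1 h and the same sort, and the control group had a control treatment. Each group had 3 arrays, and all 9 samples were the line hMLKL1-181-2Fv-NIH3T3, mouse fibroblasts that carry part of human MLKL, the pore-forming protein of necroptosis, fused to Fv domains that B/B pulls together. Nothing in the labels gives the harvest time of the control cells, their sorting, the clonality of the line or the number of cultures behind a group, so p-values measure the spread between these samples, which may be technical. Against control, B/B, the sort and the time of harvest cannot be told apart.

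The proteasome is the protease that degrades proteins tagged with ubiquitin. Its core particle is a barrel of alpha and beta rings whose catalytic beta subunits cut the substrate inside. The regulatory particle caps the barrel: a base with a ring of ATPases unfolds the substrate and pulls it in, and a lid removes the ubiquitin chain. In cells exposed to interferon the catalytic beta subunits can be replaced by immune counterparts, and other activators can take the place of the regulatory particle. When proteasome activity drops, the transcription factor NRF1, the product of Nfe2l1, is known to raise the transcription of subunit genes through antioxidant response elements.

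Values are the authors' log2 probe set levels, where base 2 was inferred from their range, and a level on an array is relative to the other RNA on it. Array medians over all probe sets lay between 4.60 and 4.68. Fewer cells expressing a gene and less RNA per cell cannot be told apart in such bulk samples. The SD of a subunit gene within a group had a median of 0.0445 (log2, n = 3 per group). B/B 1 h replicate 1 was the lowest of its group in 25 of the 42 genes and had the lowest array weight, 0.563. Of the fibroblast markers, Vim and Fn1 read 12.93 and 11.99 in the washout group and 12.93 and 11.93 in control. The leukocyte marker Ptprc read 3.20 in the washout group and 3.39 in control and lay among the lowest 30% of genes by mean level. Of 11 fibroblast markers, 1 was higher (Pdgfra, by 0.68) and 7 were lower after washout than in control. The lower ones included Pdgfrb at -1.36, Col1a2 at -0.99, Col1a1 at -0.79 and Thy1 at -0.44 (log2). Postn lay among the lowest 30% of genes, at 3.71 in the washout group and 4.05 in control. The summed level of the 11 was 14.05 to 14.06 on washout arrays, 14.23 on the B/B 1 h arrays and 14.20 to 14.22 on control arrays (log2). Leukocyte markers, with 6 of 9 among the lowest 30% of genes, had summed levels of 9.85 to 9.90 on washout arrays, 9.51 to 9.64 on B/B 1 h arrays and 9.06 to 9.16 on control arrays (log2), with Cd14 at 9.30 in washout, 8.44 in B/B 1 h and 7.83 in control cells. Of these 9, 1 was higher and 2 lower after washout than in control, and 3 were higher at B/B 1 h than in control. Epithelial markers had 0 higher and 1 lower of 6 after washout, and endothelial markers 1 higher and 0 lower of 5. Over all genes, 14.5% were higher and 11.7% lower after washout than in control, and 1.01% were higher at B/B 1 h. The part of these marker shifts in the subunit values was not tested.

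Washout cells were compared with control cells to see how subunit levels stood after 6 h of washout. Of the 42 subunit genes, 18 were lower and 1 was higher past the threshold of an adjusted p under 0.05 (limma, Benjamini-Hochberg over all genes), where 11.7% of all genes tested were lower and 14.5% higher. The 1 that was higher, Psmd10, encodes an assembly chaperone. The members' share that was lower, 42.9%, can also be set beside the 27.7% lower and 28.5% higher among the 6654 genes in the highest 30% by mean level, which hold 11 core and 21 regulatory genes. On 26 members every washout array lay below every control array. The same held for 17.8% of all genes and 37.0% of the highest 30% by mean. On 4 members every washout array lay above every control array. So did 4477 of all 22180 genes and 2461 of the 6654 in the highest 30% by mean. Over all genes, 38.0% were apart in either direction. The median log2 difference was -0.12 over the 42 members and 0.00 over all genes, so the shift was small: the largest falls left washout levels at 0.730 of control.

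**Figure D1:**
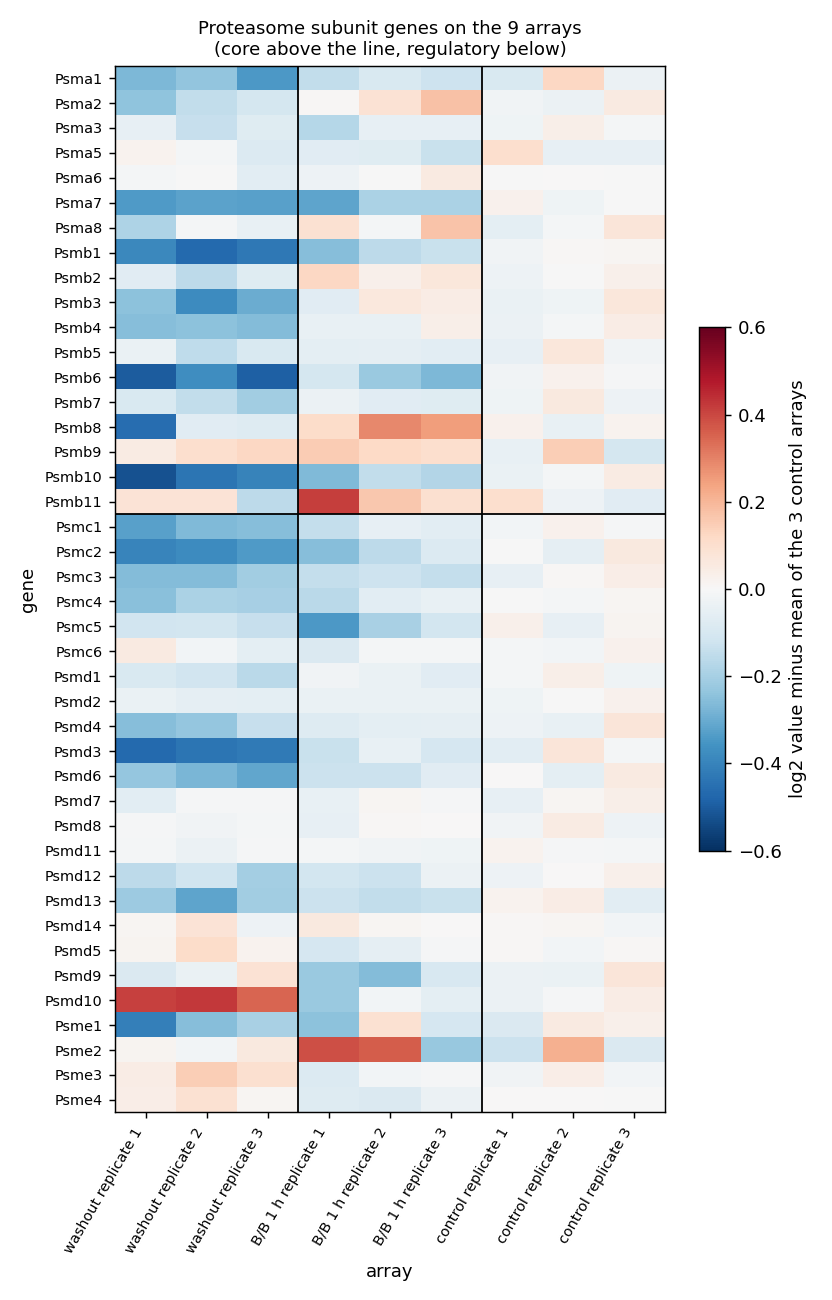
Level of each of the 42 subunit genes (rows) on each of the 9 arrays (columns: washout, B/B 1 h, control), as the log2 value minus the mean of the 3 control arrays, blue where lower and red where higher. Most rows are blue on the washout arrays, and Psmd10 is red on all 3 of them.

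In the core particle, 8 genes were lower and 0 higher of 18 (limma; 9 lower and 0 higher at an unadjusted p under 0.05), with a median difference of -0.16. At an unadjusted p under 0.05, 15.7% of all genes and 32.5% of the highest 30% by mean were lower. Past the adjusted threshold these shares were 11.7% and 27.7%, and they also stand beside the counts by role that follow. The alpha ring, whose subunits form the gate through which substrates enter, had 2 lower of 6 measured genes. Psma7 read 8.90, 8.92 and 8.91 on the washout arrays, against 9.27, 9.22 and 9.24 on the control arrays. These groups did not overlap, and the difference was -0.33 ± 0.046 (log2, SE, adjusted p 5.0e-04). Psma1 was the other, at -0.28 (adjusted p 0.0060). Psma2, Psma3 and Psma6 stood at -0.16, -0.09 and -0.03 without passing. Psma5 stood at -0.03 from a probe set that read 3.94 in the washout group and 3.97 in control, within the lowest 30% of genes by mean, and its other probe set read 3.33 and 3.30, so that its values were not told apart from background. Psma8, the testis form of the alpha subunit Psma7, read 3.32, 3.49 and 3.46 on washout arrays and 3.45, 3.49 and 3.58 on control arrays, also within the lowest 30%.

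Among the structural beta subunits, which carry no active site in the assembled ring, 3 of 4 were lower. Psmb1 had 8.62, 8.54 and 8.58 in washout cells, against 8.98, 9.02 and 9.02 in control cells. Every washout array was below every control array, by -0.43 ± 0.046 on average (log2, SE, adjusted p 9.1e-05). Psmb3 and Psmb4 fell by 0.31 and 0.25 (log2; adjusted p 0.0024 and 0.0015), and Psmb2 stood at -0.10 (adjusted p 0.160).

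The catalytic beta subunits come in pairs of a constitutive and an immune form, and 2 of 3 constitutive and 1 of 3 immune genes were lower. Psmb6, the caspase-like subunit, read 8.88, 9.004 and 8.89 in washout cells, against 9.36, 9.40 and 9.37 in control cells. All 3 washout arrays lay below all control arrays, and the difference was -0.45 ± 0.055 (log2, SE, adjusted p 2.0e-04). Its immune counterpart Psmb9 read 4.30, 4.35 and 4.37 against 4.21, 4.40 and 4.15 in control, groups that overlapped at 0.09 (adjusted p 0.374, and 0.0409 without control replicate 2). Psmb9 was dim, with a mean over all arrays of 4.32, below the array medians of 4.60 to 4.68.

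Psmb7, the trypsin-like subunit, read 9.96, 9.91 and 9.85 on washout arrays and 10.03, 10.11 and 10.03 on control arrays. It was lower by -0.15 ± 0.046 (log2, SE, adjusted p 0.0389), a call lost in 9 of 15 alternatives with adjusted p up to 0.133, among them quantile normalization and the removal of washout replicate 2 or 3, B/B 1 h replicate 2 or 3, or any control array. Psmb10, the immune counterpart of Psmb7, read 6.79, 6.87 and 6.91 in washout cells, against 7.27, 7.30 and 7.36 in control cells. With Psmb6 it had the lowest differences of the members, at -0.45 ± 0.051 (log2, SE, adjusted p 1.3e-04), and the groups did not overlap.

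Psmb5, the chymotrypsin-like subunit and target of the drug bortezomib, read 11.66, 11.55 and 11.61 after washout, against 11.65, 11.77 and 11.68 in control. The groups overlapped and the difference of -0.09 ± 0.047 did not pass (log2, SE, adjusted p 0.201). Psmb8, its immune counterpart, read 4.82, 5.21 and 5.20 after washout and 5.31, 5.23 and 5.30 in control, with washout replicate 1 well below the other arrays of its group (difference -0.20 with no overlap, adjusted p 0.193, and -0.07 without that array). Psmb11, the thymus form, read 4.31, 4.31 and 4.07 after washout and 4.33, 4.20 and 4.16 in control, which overlapped (0.00, adjusted p 0.994). Whether the difference between washout and control itself differed within any of these pairs was not tested.

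**Figure D2:**
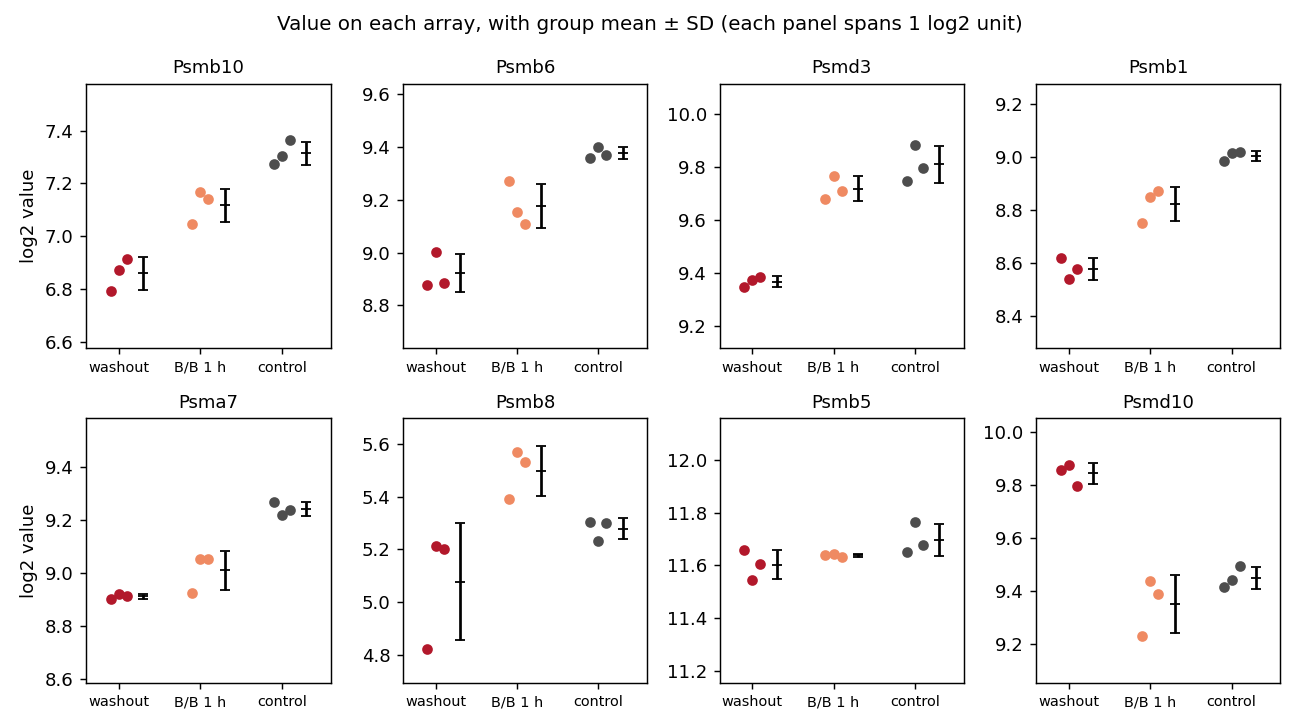
Log2 value of 8 subunit genes on every array, with the mean and SD of each group of 3 beside the points (washout, B/B 1 h, control). In Psmb10, Psmb6, Psmd3, Psmb1 and Psma7 the washout arrays are below all control arrays, in Psmd10 they are above, in Psmb5 the groups overlap, and in Psmb8 the B/B 1 h arrays are the highest.

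In the regulatory particles, 10 genes were lower and 1 was higher of 24, with a median difference of -0.09. The ATPases of the base had 4 lower of 6. Psmc2 fell by 0.37 (adjusted p 6.2e-04), and its other probe set read -0.38 with an adjusted p of 0.0062 over 1-symbol probe sets. Psmc1, Psmc3 and Psmc4 fell by 0.28, 0.24 and 0.21 (log2; adjusted p 9.3e-04, 0.0015 and 0.0055), whereas Psmc5 and Psmc6 stood at -0.12 and -0.01 without passing. Of the base's other subunits, the ubiquitin receptor Psmd4 read 8.08, 8.10 and 8.20 on washout arrays, against 8.31, 8.29 and 8.41 on control arrays. It was lower on each, by -0.21 ± 0.049 (log2, SE, adjusted p 0.0103), while the scaffold genes Psmd1 and Psmd2 stood at -0.12 and -0.05 (adjusted p 0.0549 and 0.391).

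The lid had 4 lower of 8 genes. Psmd3, a structural lid subunit, read 9.35, 9.37 and 9.38 after washout, against 9.75, 9.88 and 9.80 in control. The groups were apart on all arrays, with a difference of -0.44 ± 0.048 (log2, SE, adjusted p 9.5e-05). Psmd6, Psmd13 and Psmd12 fell by 0.27, 0.25 and 0.16 (log2; adjusted p 0.0016, 0.0033 and 0.0239), and the Psmd12 call was lost without washout replicate 1 or 3 or control replicate 2 or 3, with adjusted p up to 0.0842. Psmd7, Psmd8, Psmd11 and Psmd14, the last of which encodes the deubiquitinase of the lid, ran from -0.03 to 0.02, all short of the threshold.

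Psmd10 was the member that was higher. It encodes gankyrin, a chaperone that holds ATPases during assembly of the base and leaves before the particle is finished. It read 9.86, 9.88 and 9.80 in washout cells, against 9.41, 9.44 and 9.50 in control cells. No arrays overlapped, and the level was 1.31-fold that of control (log2 difference 0.39 ± 0.059, SE, adjusted p 7.1e-04), a call kept in all 15 alternatives. The other chaperones of base assembly, Psmd5 and Psmd9, stood at 0.05 and -0.01 (adjusted p 0.508 and 0.922).

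Of the 4 genes of alternative activators, 1 was lower. Psme1, a subunit of the interferon-inducible activator, read 7.39, 7.55 and 7.61 after washout and 7.72, 7.86 and 7.83 in control. It was lower on all arrays by -0.29 ± 0.089 (log2, SE, adjusted p 0.0402), a call lost without washout replicate 1 or 2, B/B 1 h replicate 3, or control replicate 2 or 3, with adjusted p up to 0.141. Its partner Psme2 read 7.17, 7.13 and 7.21 after washout and 7.02, 7.36 and 7.06 in control, with the wide control spread covering the washout values (0.02, adjusted p 0.954). Psme3, a nuclear activator, read 9.76, 9.87 and 9.82 after washout and 9.70, 9.76 and 9.70 in control. Psme4, an activator linked to chromatin, read 9.70, 9.75 and 9.68 after washout and 9.67, 9.67 and 9.66 in control. Both were above control on every array, at 0.10 and 0.05, without passing (adjusted p 0.173 and 0.474).

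**Figure D3:**
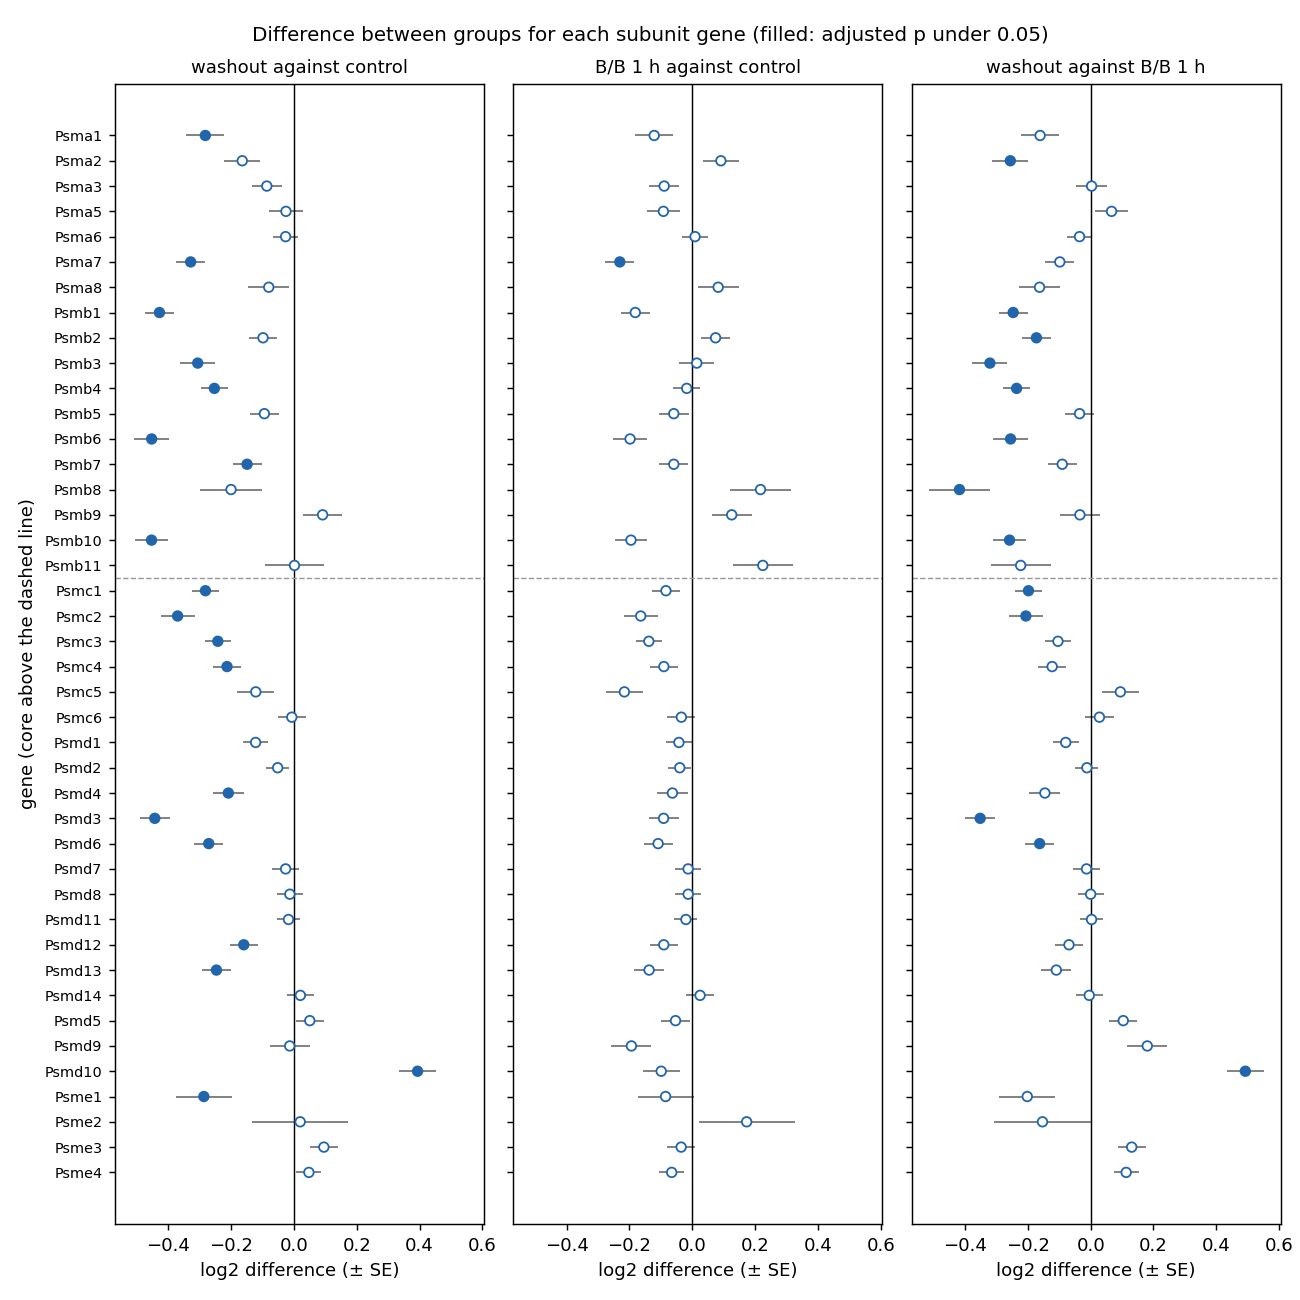
Log2 difference with its standard error for each of the 42 subunit genes (rows) in the 3 comparisons, core genes above the dashed line, with filled points at an adjusted p under 0.05. For washout against control 19 points are filled, for B/B 1 h against control 1, and for washout against B/B 1 h 13.

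Cells at B/B 1 h were compared with control to see which subunits differed soon after MLKL dimerization. Only Psma7 passed, as 1 lower and 0 higher of 42 (limma; 10 lower and 1 higher at an unadjusted p under 0.05), where 1.88% of all genes were lower and 1.01% higher. At an unadjusted p under 0.05, 23.8% of the members were lower, beside 10.3% of all genes and 19.9% of the highest 30% by mean. The share of called genes that were higher, over all genes, was 34.9% and became 48% with quantile normalization, which left the count of members as it was. Psma7 read 8.92, 9.05 and 9.05 at B/B 1 h, against 9.27, 9.22 and 9.24 in control. Each B/B 1 h array was below each control array, by -0.23 ± 0.046 (log2, SE, adjusted p 0.0328). The call was lost in 9 of 15 alternatives (adjusted p up to 0.101), among them the removal of any control or washout array or of B/B 1 h replicate 1 or 2.

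At 1 h, 32 of the 42 members (76.2%) were below 0, where 48.4% of all genes and 65.2% of the highest 30% by mean were. On 21 of the 42 genes every B/B 1 h array lay below every control array, where 12.3% of all genes and 25.7% of the highest 30% by mean did so. On 2 every one lay above, as on 1996 of all 22180 genes and 659 of the 6654 in the highest 30% by mean. Over all genes, 21.3% were apart in either direction. The median difference was -0.04 over the core, -0.07 over the regulatory particles and 0.00 over all genes, while genes in the highest 30% by mean had -0.03. Without B/B 1 h replicate 1 the core and regulatory medians were -0.0268 and -0.0535. With quantile normalization they were -0.0352 and -0.0518, beside 0.0149 over all genes. In the regulatory particles 0 genes passed in either direction (limma; 6 lower and 0 higher at an unadjusted p under 0.05), and 22 of 24 were below 0. All 6 ATPase genes were below 0, from Psmc5 at -0.22 (adjusted p 0.0923) to Psmc6 at -0.03 (adjusted p 0.719).

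The 4 genes with the lowest differences between washout and control, a choice that itself favours less extreme values elsewhere, did not pass at 1 h. Psmb6 read 9.27, 9.15 and 9.11 and Psmb10 7.05, 7.17 and 7.14 on the B/B 1 h arrays, below all their control arrays, with differences from control of -0.20 and -0.20 (adjusted p 0.0959 and 0.0821). Psmb1 read 8.75, 8.85 and 8.87, also below all control arrays (-0.18, adjusted p 0.0716). Psmd3 read 9.68, 9.77 and 9.71, of which 9.77 lay above the lowest control array (-0.09, adjusted p 0.345). Psmb3 and Psmb4, also lower after washout, stood at 0.01 and -0.02 at 1 h (adjusted p 0.916 and 0.858). These comparisons share the control arrays with those of washout against control.

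Of the 3 immune catalytic genes, Psmb8 and Psmb9 lay above 0 and Psmb10 below 0 at 1 h, and none of them passed (limma). Psmb9 and the thymus form Psmb11 were dim, with means over all arrays of 4.32 and 4.31, below the array medians. Psmb8 read 5.39, 5.57 and 5.53 at B/B 1 h, above all control arrays (0.22, adjusted p 0.279). Psmb9 read 4.41, 4.37 and 4.35, which overlapped control (0.13, adjusted p 0.327). The thymus form Psmb11 read 4.65, 4.39 and 4.33, with replicate 1 the highest (0.22, adjusted p 0.249). The testis form Psma8 read 3.60, 3.49 and 3.68, which overlapped control as well (0.08, adjusted p 0.539).

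Psmb5 read 11.64, 11.64 and 11.63 and Psmb7 10.02, 9.99 and 9.99, each a little below its control arrays, at -0.06 and -0.06 (adjusted p 0.542 and 0.531). Psmd4 read 8.26, 8.28 and 8.29, close below control (-0.06, adjusted p 0.528). Psmd10 read 9.23, 9.44 and 9.39, with replicate 1 the lowest (-0.10, adjusted p 0.401). Psme1 read 7.56, 7.90 and 7.70 and Psme2 7.53, 7.51 and 6.92, the widest spreads of the regulatory members at 1 h (adjusted p 0.651 and 0.585). Psme3 read 9.64, 9.70 and 9.71, at -0.04, and Psme4 9.59, 9.58 and 9.63, at -0.07, of which Psme4 lay below all control arrays (adjusted p 0.712 and 0.412).

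Washout cells were compared with B/B 1 h cells to see what differed over 6 h of washout between groups that were both sorted. The compound of the washout step and the added time of 6 h cannot be told apart here. Of the 42 genes, 12 were lower and 1 was higher past the threshold, where 12.0% of all genes were lower and 16.6% higher, and 24.9% and 33.0% in the highest 30% by mean. On 21 members every washout array lay below every B/B 1 h array. The same held for 18.4% of all genes and 32.3% of the highest 30% by mean. On 5 members every washout array lay above every B/B 1 h array. So did 4686 of all 22180 genes and 2704 of the 6654 in the highest 30% by mean. Over all genes, 39.6% were apart in either direction. The median difference was -0.10 over the members and -0.02 over all genes.

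The core held 8 of the lower genes, 7 of them beta subunits. Psmb8 had 4.82, 5.21 and 5.20 after washout, against 5.39, 5.57 and 5.53 at B/B 1 h. The groups did not overlap, although washout replicate 1 lay far below the other arrays, and the difference was -0.42 ± 0.099 (log2, SE, adjusted p 0.0097). Without that array it was -0.29 (adjusted p 0.0086), beside -0.35 for Psmb3. All 4 structural beta genes were lower. Psmb3 had 6.55, 6.42 and 6.49 after washout, against 6.73, 6.86 and 6.84 at B/B 1 h, groups that were apart by -0.32 (adjusted p 0.0017). Psmb1, Psmb4 and Psmb2 fell by 0.25, 0.24 and 0.17 (log2; adjusted p 0.0025, 0.0021 and 0.0164), of which the Psmb2 call was lost with quantile normalization and without washout replicate 2 or B/B 1 h replicate 1 (adjusted p up to 0.0679). Psmb10 and Psmb6 fell by 0.26 and 0.26 (log2; adjusted p 0.00375 and 0.0060). Psma2, an alpha ring gene, fell by 0.26 (adjusted p 0.0072), while Psma7 stood at -0.10 (adjusted p 0.157).

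In the regulatory particles 4 genes were lower and 1 was higher of 24, and the 4 became 8 with quantile normalization and 7 with a mean-variance trend. Psmd3 fell by 0.35 ± 0.048 (log2, SE, adjusted p 3.7e-04), and all its washout arrays were below all its B/B 1 h arrays. Psmc1, Psmc2 and Psmd6 fell by 0.20, 0.21 and 0.16 (adjusted p 0.0069, 0.0166 and 0.0245). The Psmc2 call was lost with probe sets averaged and without washout replicate 1 or B/B 1 h replicate 3 (adjusted p up to 0.0565), and the Psmd6 call without washout replicate 2 or 3 or B/B 1 h replicate 3 (adjusted p up to 0.0847). Psmd10 rose by 0.49 ± 0.059 (log2, SE, adjusted p 1.6e-04), or 1.41-fold. Psmd5, Psmd9, Psme3 and Psme4 were above on every washout array, at 0.10, 0.18, 0.13 and 0.11, and did not pass (adjusted p 0.123, 0.0621, 0.0564 and 0.0609). With a mean-variance trend or with the lowest 30% of genes left out, 4 regulatory genes passed as higher in place of 1.

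Core and regulatory genes can be set side by side in the 3 comparisons. For washout against control, 8 of 18 core genes (44.4%) and 10 of 24 regulatory genes (41.7%) were lower. In that comparison 11.7% of all genes and 27.7% of the highest 30% by mean were lower. Without the immune, thymus and testis forms Psmb8, Psmb9, Psmb10, Psmb11 and Psma8 the core count was 7 of 13 (53.8%). For washout against B/B 1 h the lower genes were 8 of 18 (44.4%) and 4 of 24 (16.7%), and the medians were -0.17 and -0.04. Without the genes just named the core count was 6 of 13 (46.2%). In that comparison 12.0% of all genes and 24.9% of the highest 30% by mean were lower. The core and regulatory counts became 7 and 8 with quantile normalization and 9 and 7 with a mean-variance trend. No test of core against regulatory genes was made, since genes of a complex are not replicates of a condition. By role, lower genes after washout against control were 2 of 6 in the alpha ring, 3 of 4 structural beta, 2 of 3 constitutive catalytic beta, 1 of 3 immune catalytic beta, 4 of 6 base ATPase, 1 of 3 other base and 4 of 8 lid genes. Of base assembly chaperones, 0 of 3 were lower and 1 was higher, and of other activators 1 of 4 was lower.

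**Figure D4:**
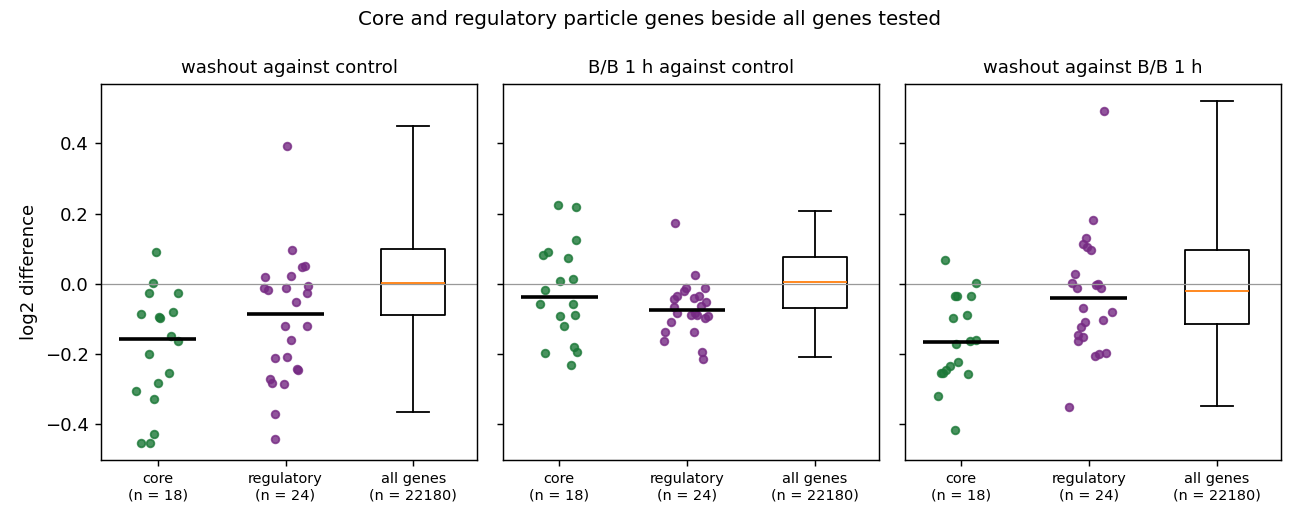
Log2 differences of core and regulatory genes (points, with a bar at the median) beside all genes tested (box from the 25th to the 75th percentile, whiskers from the 5th to the 95th) in the 3 comparisons. Core medians are -0.16, -0.04 and -0.17 and regulatory medians -0.09, -0.07 and -0.04, from left to right.

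The promoters of Psmb6 and Psmb5, catalytic genes whose calls differed, and of Psmd10, the gene that was higher, are shown because antioxidant response elements are the known route by which NRF1 and NRF2 reach subunit genes. The motif searched was TGACNNNGC on both strands, its matches are in capitals, and the windows run from 250 bases before to 50 after the annotated start (RefSeq, GRCm38.p6), printed in the direction of the gene. They lie at chr11:70525107-70525406 on the plus strand, chr14:54617946-54618245 on the minus strand and chrX:140956662-140956961 on the minus strand.
Psmb6: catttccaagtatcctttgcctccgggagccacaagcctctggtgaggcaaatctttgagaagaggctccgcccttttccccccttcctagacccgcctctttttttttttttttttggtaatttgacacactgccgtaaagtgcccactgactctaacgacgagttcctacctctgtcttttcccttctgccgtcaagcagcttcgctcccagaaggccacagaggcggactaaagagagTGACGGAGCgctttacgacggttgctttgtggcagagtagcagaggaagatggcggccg
Psmb5: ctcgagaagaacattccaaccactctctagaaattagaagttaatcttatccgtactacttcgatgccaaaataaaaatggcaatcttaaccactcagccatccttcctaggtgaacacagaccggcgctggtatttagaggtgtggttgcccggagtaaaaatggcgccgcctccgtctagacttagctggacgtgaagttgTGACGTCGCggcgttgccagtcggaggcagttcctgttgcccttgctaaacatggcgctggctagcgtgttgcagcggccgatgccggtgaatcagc
Psmd10: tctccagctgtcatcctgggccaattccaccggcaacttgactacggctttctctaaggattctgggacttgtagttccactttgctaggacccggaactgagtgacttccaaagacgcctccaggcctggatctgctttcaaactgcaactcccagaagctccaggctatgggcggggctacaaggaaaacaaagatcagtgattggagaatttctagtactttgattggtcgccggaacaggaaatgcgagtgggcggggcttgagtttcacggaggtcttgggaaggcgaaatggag

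Psmb6 and Psmb5 each hold 1 match and Psmd10 holds 0. Of the 42 subunit genes, 35 had a promoter window, and 6 of these (17.1%) held the motif, against 3781 of 27025 genes with a window (14.0%). These were Psmb5, Psmb6, Psmc6, Psmd9, Psmd12 and Psme4, of which Psmb6 and Psmd12 were lower after washout than in control. Among members with a window, 2 of 14 that were lower (14.3%) and 4 of 21 that were not (19.0%) held the motif. A match describes letters in the window and not binding.

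Genes that work with the proteasome were counted in lists, for washout against control. Of assembly chaperones of the core, 3 were lower and 0 higher of 5 measured, beside 11.7% and 14.5% of all genes. Among the highest 30% by mean, where the 3 lower genes lay, 27.7% were lower and 28.5% higher. Psmg1 and Psmg2, partners that start the alpha ring, fell by 0.45 ± 0.044 and 0.30 ± 0.069 (log2, SE; adjusted p 5.0e-05 and 0.0083), and Pomp, which guides insertion of the beta subunits, fell by 0.24 ± 0.056 (adjusted p 0.0106). Psmg3 and Psmg4 stood at -0.03 and 0.14 without passing. The list's median was -0.24, beside 0.00 over all genes.

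Among other subunits and bound factors, 2 were higher and 3 lower of 14 measured, with a median of 0.00. Of all genes 14.5% were higher and 11.7% lower, and of the highest 30% by mean 28.5% and 27.7%. Psmf1, an inhibitor of the core particle, was higher at 9.14 ± 0.032 in washout cells and 8.85 ± 0.032 in control cells (log2, SD, n = 3 each; difference 0.29, adjusted p 4.6e-04). Zfand2a, a stress-inducible proteasome-binding protein, was higher by 0.19 (adjusted p 0.0073). Uchl5, a deubiquitinase of the base, and the shuttle factor Ubqln4, which brings ubiquitinated proteins to the proteasome, fell by 0.33 and 0.26 (log2; adjusted p 0.0072 and 0.0013).

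Of NRF1 and NRF2 regulators, 1 was higher and 3 were lower of 8 measured. Among all genes 14.5% were higher and 11.7% lower, and among the highest 30% by mean 28.5% and 27.7%. Nfe2l1, which encodes NRF1, read 10.68 ± 0.034 in washout cells, 10.25 ± 0.035 at B/B 1 h and 10.22 ± 0.029 in control cells (log2, SD, n = 3 each). It was higher after washout than in control by 0.46 (adjusted p 3.1e-05) and than at B/B 1 h by 0.44 (adjusted p 3.8e-05). Nfe2l2, which encodes NRF2, and its inhibitor gene Keap1 fell by 0.20 and 0.35 (log2; adjusted p 0.0038 and 0.0060), as did Mafk, a small Maf partner of both factors, by 0.39 (adjusted p 2.8e-04). Mafg, another such partner, was lower at B/B 1 h than in control, by -0.34 (adjusted p 0.0344), the one call of these lists at 1 h.

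Uba6, an enzyme that activates ubiquitin, was the gene measured of 6 in the list of ubiquitin genes and E1 enzymes. It read 9.75 ± 0.073 in washout cells and 9.23 ± 0.043 in control cells (log2, SD, n = 3 each), higher by 0.52 (adjusted p 3.9e-05). Of antigen processing and other genes induced with the immunoproteasome, 1 was higher and 1 lower of 9 measured, beside 14.5% and 11.7% of all genes. The gene that was higher, Cd274, encodes the immune checkpoint ligand PD-L1 and is not a processing gene. It was higher by 0.49 and Tap2, a subunit of the peptide transporter, fell by 0.17 (log2; adjusted p 2.7e-04 and 0.0234), while Irf1 and B2m stood at 0.06 and -0.02 without passing.

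**Figure D5:**
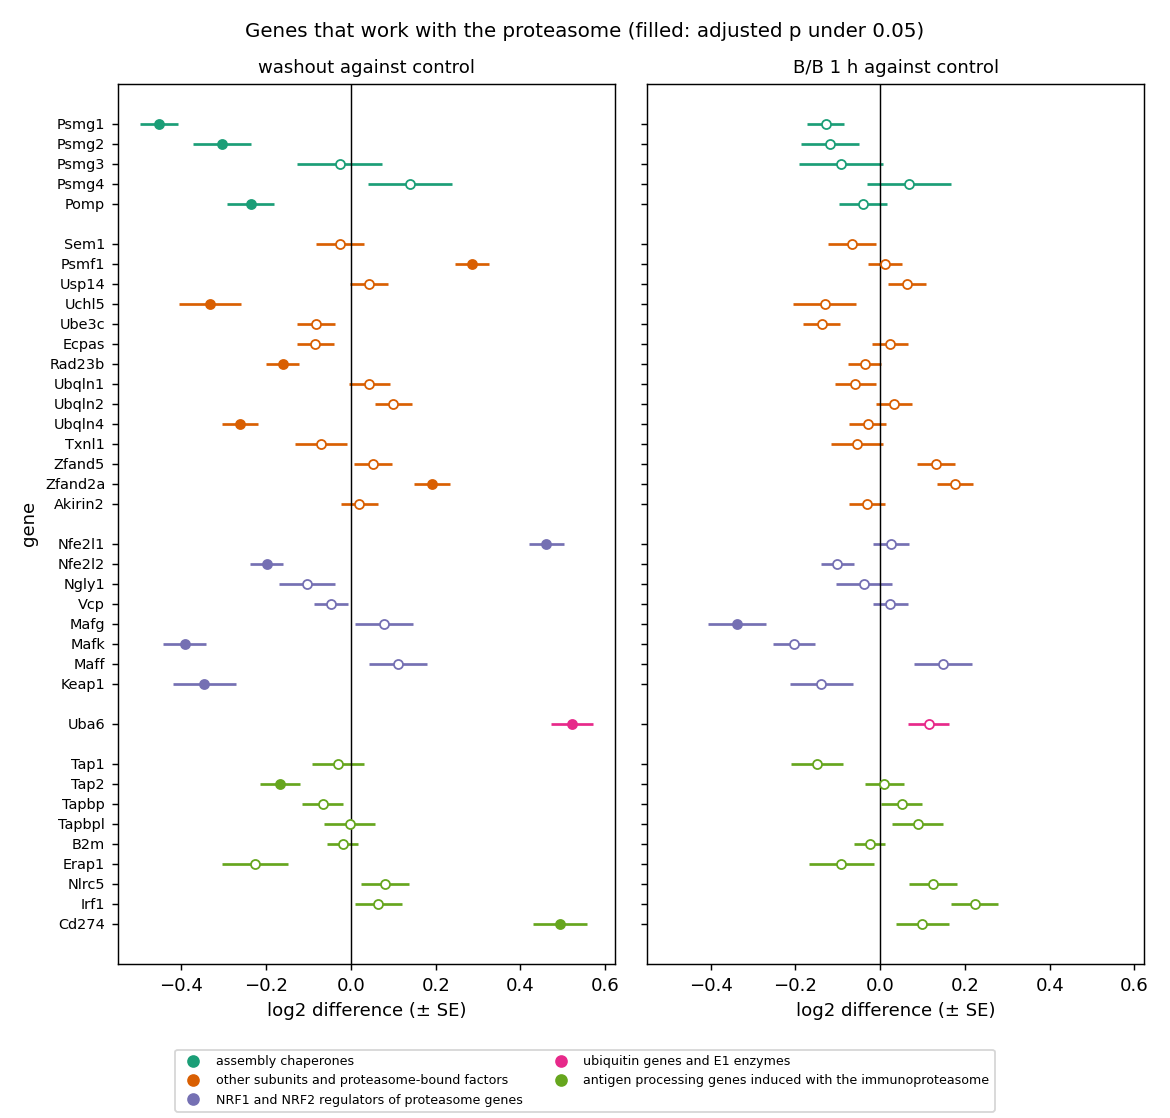
Log2 difference with its standard error for genes that work with the proteasome, coloured by list, for washout against control and B/B 1 h against control, with filled points at an adjusted p under 0.05. Nfe2l1, Uba6, Cd274 and Psmf1 lie above 0 and Psmg1, Mafk and Keap1 below 0 after washout, and Mafg is the filled point at B/B 1 h.

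Psma4, measured by 2 probe sets that also carry the symbol AY074887 and were fitted with the 1814 probe sets of several symbols, gave differing values. The brighter of them read 9.03 ± 0.023 in washout cells, 9.13 ± 0.063 at B/B 1 h and 9.24 ± 0.12 in control cells (log2, SD, n = 3 each), lower after washout than in control by -0.20 (adjusted p 0.0413). The dimmer read 4.75 in washout cells and 4.66 in control cells, at 0.09 (adjusted p 0.388). The genes of subunit-binding proteins were separate from the subunits: Psme3ip1 was higher after washout than in control by 0.24 (adjusted p 0.0028) and than at B/B 1 h by 0.20 (adjusted p 0.0092), and Psmc3ip stood at 0.04 (adjusted p 0.703).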

How the data were processed

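Each of 9 samples of total RNA had its own Affymetrix array, in 3 groups of 3 set by the treatment labels. Per the labels' protocols, RNA was extracted with Trizol and labelled as biotinylated cRNA. The submitters' processing notes name Partek 6.6. The deposited log2 values, 1 for each probe set and array, were taken as normalized by the authors. Array medians over all probe sets ran from 4.60 to 4.68, with B/B 1 h replicate 1 the highest. The method of summary and normalization and any detection calls are not given in the sources used here, and base 2 was inferred from values between 1.79 and 13.2. Precision is limited by the number of arrays.

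A single gene symbol belonged to 23521 of the 41345 probe sets, while 1814 had several and 16010 had no symbol. Gene IDs of 23328 were found in a gene table of GRCm38.p6, which changed 0 symbols. Each of 22180 genes was represented by its brightest probe set, by mean over the arrays. Limma 3.58.1 in R 4.3.3 fitted 3 group means over all arrays, with 6 residual and 3.38 prior degrees of freedom and moderated tests. Benjamini-Hochberg adjustment ran over all genes within each comparison, with a threshold of 0.05. Promoter windows came from RefSeq, and 7 members had none among them.

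Every member could be named. Array values were given for the 4 highest and 4 lowest differences past the threshold in each comparison, the catalytic pairs, Psma7, Psma8, Psmb11, Psmd4 and Psme1 to Psme4, and up to 4 members of each other list were named per comparison, with others given after their values were seen. Members and lists were chosen with earlier results of these data known. The calculations were tested on simulated data. Alternatives were quantile normalization, averaging of a gene's probe sets, removal of the lowest 30% of genes, array weights, a mean-variance trend, only the 2 groups compared, and each array left out.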

Additional observations from a re-analysis of the deposited data

How the results depend on the processing

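Of the 19 subunit genes called for washout against control, 16 kept their call and direction in all 15 alternatives, as did 10 of 13 for washout against B/B 1 h and 0 of 1 for B/B 1 h against control, and no called gene changed sign. For B/B 1 h against control, the count of 1 lower core gene was 2 with the lowest 30% of genes left out, 3 with a mean-variance trend, 0 with only the 2 groups compared and 0 to 1 with an array left out. The count of 0 lower regulatory genes there was 1 with the trend and 0 to 1 with an array left out. For washout against B/B 1 h, the count of 1 higher regulatory gene was 3 with quantile normalization, 4 with the lowest 30% of genes left out, 4 with the trend and 1 to 2 with an array left out. The count of 4 lower regulatory genes was 8 with quantile normalization, 7 with the trend and 3 to 6 with an array left out. For washout against control, the count of 0 higher core genes was 0 to 1 with an array left out, Psmb9 being the gene. With the lowest 30% of genes left out, Psma5 and Psma8 were not tested. The causes of these shifts were not tested. No paired analysis was possible because the labels carry no replicate numbers that groups share. Without detection calls, signal over background is unknown for the dim members.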

Other observations

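Other probe sets carry a subunit symbol beside that of another gene. The probe set of Psme2 that also carries 9930111J21Rik1 and 9930111J21Rik2 read 6.48 ± 0.035 in washout cells, 6.93 ± 0.14 at B/B 1 h and 6.76 ± 0.033 in control cells (log2, SD, n = 3 each). It was lower after washout than in control by -0.27 (limma adjusted p 0.0143) and than at B/B 1 h by -0.45 (adjusted p 8.6e-04), while the probe set of Psme2 alone stood at 0.02 and -0.15 without passing. The probe set of Psmd1 that also carries Armc9 stood at 0.12 after washout against control (adjusted p 0.325), where that of Psmd1 alone stood at -0.12.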
